A study of Mus musculus with 6 samples.

Results

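Steroid hormone receptors were examined in gastrocnemius, a calf muscle, of mice that had lost the kinase TAK1 in skeletal muscle. The group held 6 genes of 22180 measured: the estrogen receptors Esr1 and Esr2, the progesterone receptor Pgr, the glucocorticoid receptor Nr3c1, the mineralocorticoid receptor Nr3c2 and the membrane estrogen receptor Gper1. They were taken by gene symbol from the deposited table, and a gene with several probe sets was read from the one with the highest mean over the 6 arrays. The 3 knockout mice carried a skeletal muscle-specific deletion of TAK1 that had lasted 3 weeks, and the 3 control mice were littermates with floxed TAK1 alleles. Each mouse gave total RNA for 1 expression array, and values are RMA summaries on the log2 scale, so a step of 1 is a doubling of signal. Strain, sex and age of the mice, the Cre line and any agent used to start the deletion are not stated in the labels. Esr1 was chosen by its difference between the groups in these arrays, and the others are its relatives.

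Steroid receptors are transcription factors that bind a lipid-soluble hormone inside the cell, are kept ready for it by the HSP90 chaperone machinery, and then recruit coactivators or corepressors to target genes. Gper1 differs from the others in being a G-protein-coupled receptor. In skeletal muscle the glucocorticoid receptor is best known for driving protein breakdown during fasting and stress, and estrogen receptor alpha, the product of Esr1, for supporting mitochondrial and glucose metabolism. TAK1, encoded by Map3k7, relays cytokine and TGF-beta family signals.

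Esr1 has more than 1 transcription start in the RefSeq promoter table (GRCm38.p6). The labels do not say from which of these starts the single Esr1 probe set reads transcripts. The 2 windows listed for Esr1 are shown because it is the receptor gene whose level differed most. Each runs from 250 bases before a start to 50 bases after it on the plus strand, at chr10:4611739-4612038 and chr10:4709908-4710207, and the starts lie 98169 bases apart. Capitals mark a match to a searched motif.
Esr1 window 1: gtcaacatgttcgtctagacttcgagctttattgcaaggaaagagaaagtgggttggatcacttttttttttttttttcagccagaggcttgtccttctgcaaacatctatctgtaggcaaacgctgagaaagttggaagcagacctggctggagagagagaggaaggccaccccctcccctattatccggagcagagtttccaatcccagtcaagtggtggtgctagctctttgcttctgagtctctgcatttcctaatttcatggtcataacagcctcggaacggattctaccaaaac
Esr1 window 2: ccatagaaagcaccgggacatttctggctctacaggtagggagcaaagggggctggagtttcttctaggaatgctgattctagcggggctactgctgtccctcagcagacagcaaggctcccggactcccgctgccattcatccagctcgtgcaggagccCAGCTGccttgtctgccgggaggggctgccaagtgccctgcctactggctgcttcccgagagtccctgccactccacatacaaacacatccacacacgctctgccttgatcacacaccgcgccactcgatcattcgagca

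Both strands of these windows were searched for the estrogen response element GGTCANNNTGACC, the glucocorticoid response element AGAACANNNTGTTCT, the AP-1 motif TGANTCA, the NF-kB motif GGGANNTTCC and the E-box CAGCTG. AP-1 and NF-kB are factors that act downstream of TAK1. The first Esr1 window held none of these letters, and the second held 1 E-box, starting at base 161 of the window. Among 32851 promoter windows of the same length, 16.3% held that E-box, 7.81% the AP-1 motif, 1.47% the NF-kB motif, 0.07% the estrogen element and 0.00913% the glucocorticoid element. Promoter windows were listed for 5 of the 6 receptor genes, 6 windows in all, and the only other match was 1 E-box in the Esr2 window. Nr3c1 was not matched in that table.

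The arrays were alike in overall signal, with medians between 5.78 and 5.84. Pearson's r between arrays, across genes, which are not independent replicates, was 0.990 to 0.992 within groups and 0.985 to 0.990 between them. The tissue label was checked against markers of skeletal muscle fibres. All 15 lay above the level of unexpressed genes used here, 5.85, the 95th percentile among the mean levels of 1394 odorant and pheromone receptor genes. Creatine kinase Ckm stood at 13.75, 13.74 and 13.78 in knockout muscle and at 13.79, 13.77 and 13.73 in control muscle. Of the 15 fibre markers, 6 were higher and 9 lower in knockout muscle, from −0.49 for Myh1 to 0.17 for Des on the log2 scale. Groups did not overlap in 4 of them, 1 higher and 3 lower, beside 13.4% of all genes. Of the 15, 0 passed an adjusted p of 0.05 over all genes (limma). Map3k7 itself stood at 8.20, 8.28 and 8.17 in knockout muscle and at 8.47, 8.32 and 8.42 in control muscle. Every knockout value was below every control value, and the adjusted p over all genes was 0.686 (limma). The deletion was specific to skeletal muscle, so whole muscle also held cells outside it. The labels do not say which exons the Map3k7 probe set covers, and the reason for the size of its difference was not tested. Fewer cells of a type and less RNA per cell cannot be told apart in whole muscle.

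Esr1 encodes estrogen receptor alpha. Its log2 level was 10.35, 10.08 and 10.12 in the 3 knockout muscles and 8.90, 8.95 and 8.49 in the 3 control muscles. Every knockout value lay above every control value, and the lowest knockout array exceeded the highest control array by 1.12. The spread within a group was far smaller, with SDs of 0.15 in knockout and 0.25 in control muscle (n = 3 each), and control 3 was the lowest of the 6 arrays. The mean was 10.18 in knockout and 8.78 in control muscle, a log2 difference of 1.40 (SE 0.14, 95% confidence interval 1.07 to 1.74). On the linear scale this is 2.65-fold, with an interval of 2.11-fold to 3.33-fold. This difference was the 6th highest of 22180 genes. It is given as a description, with no test, because the receptor genes were chosen with this contrast known.

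**Figure D1:**
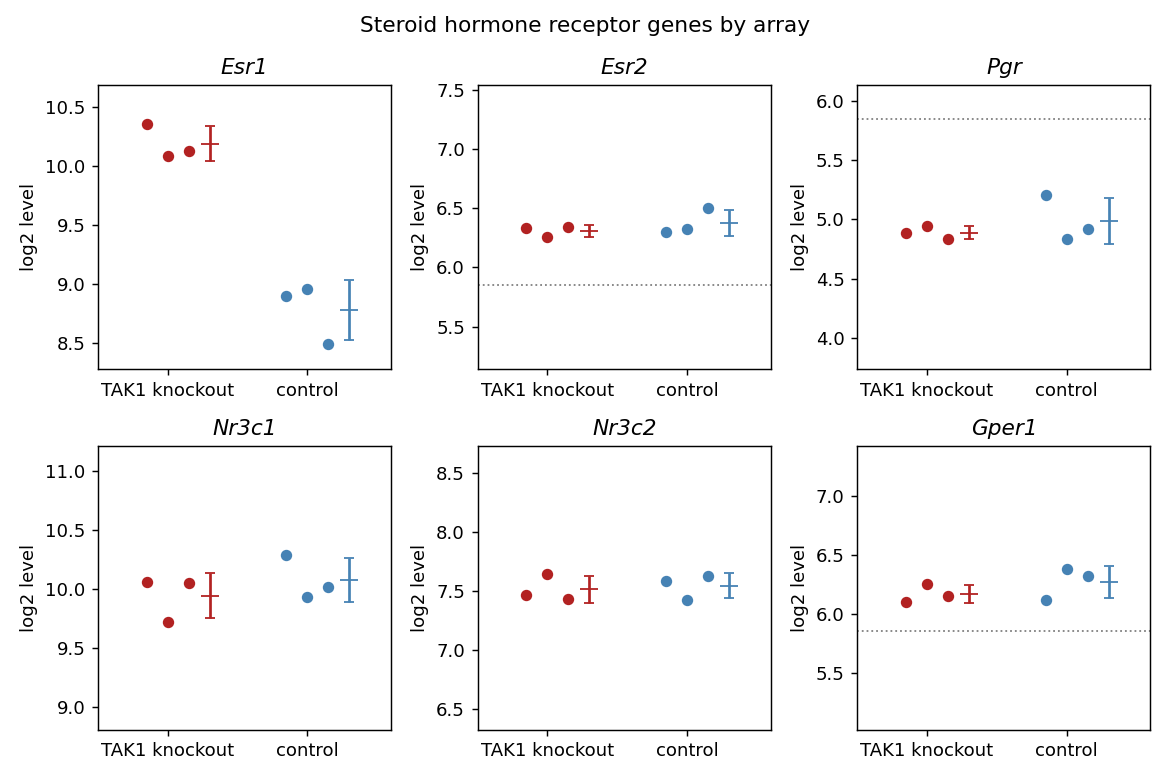
Log2 level of each receptor gene on each array, with 3 knockout arrays (red) left of 3 control arrays (blue). Points are arrays, the offset bar is the mean with its SD, every panel spans the same range on the log2 scale, and the dotted line marks the level of unexpressed genes, 5.85. Only the Esr1 panel shows groups that do not overlap.

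The second estrogen receptor gene did not share this separation. Esr2, which encodes estrogen receptor beta, read 6.33, 6.25 and 6.34 in knockout muscle and 6.30, 6.33 and 6.50 in control muscle. The groups overlapped, and the signal lay close to the level of unexpressed genes. Its log2 fold change was −0.06 (95% confidence interval −0.29 to 0.16).

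Gper1, the membrane receptor that responds to estrogen through G proteins, read 6.10, 6.25 and 6.16 in knockout muscle and 6.12, 6.38 and 6.32 in control muscle. Its groups overlapped too, because control 1 fell among the knockout arrays. The log2 fold change was −0.10 (95% confidence interval −0.35 to 0.14), again at a signal near that of unexpressed genes.

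Pgr, the progesterone receptor, is a textbook target of estrogen receptor alpha in the reproductive tract. It read 4.88, 4.94 and 4.83 in knockout muscle and 5.20, 4.84 and 4.92 in control muscle, all below 5.85. No fold is read from these values, since neither group lay above the level of unexpressed genes, and a difference was not detectable at this signal. The wider of the spreads for Pgr, a control SD of 0.19, came from control 1.

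The corticosteroid receptors were both measured above that level. Nr3c1, which encodes the glucocorticoid receptor, read 10.06, 9.72 and 10.05 in knockout muscle and 10.29, 9.93 and 10.01 in control muscle. The groups overlapped, with knockout 2 the lowest and control 1 the highest array. Its log2 fold change was −0.13 (95% confidence interval −0.45 to 0.18).

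Nr3c2, the mineralocorticoid receptor, which binds aldosterone and also glucocorticoids, read 7.47, 7.64 and 7.43 in knockout muscle and 7.58, 7.42 and 7.62 in control muscle. The highest and the lowest array of the 6 were knockout 2 and control 2, so the groups were interleaved. Its log2 fold change was −0.03 (95% confidence interval −0.27 to 0.21). A second Nr3c2 probe set, at 4.93 in knockout and 4.94 in control muscle, lay below the level of unexpressed genes. One more was shared with another gene and was not read. The other receptor genes had 1 probe set each.

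**Figure D2:**
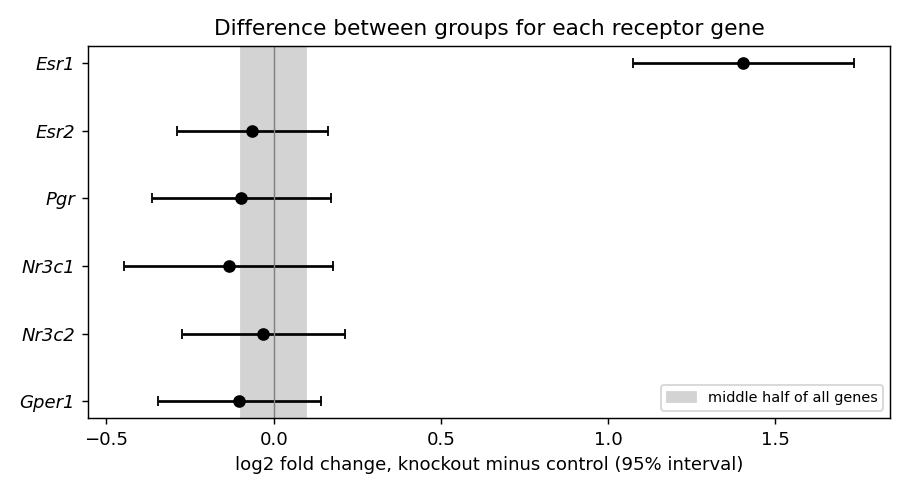
Log2 fold change of each receptor gene, knockout minus control, with its 95% confidence interval from limma. The grey band spans the quartiles of all 22180 genes, −0.10 to 0.10. Esr1 stands at 1.40, and the intervals of the other 5 genes all include 0. Pgr is drawn for completeness, and no fold is read from it because it lay below the level of unexpressed genes.

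Of the 6 receptor genes, 1 passed an adjusted p of 0.05 over all genes (limma), and 0.0947% of all 22180 genes did. Nothing is read from this count, because the same contrast was known when the genes were chosen. The same holds for the 1 receptor gene whose groups did not overlap, while 13.4% of all genes had such groups. Leaving out control 1, control 2 or any of the 3 knockout arrays moved Esr1 to the other side of the threshold, so that 0 receptor genes passed, while its log2 fold change ranged from 1.26 to 1.49 over the 6 fits that each lacked 1 array. The other 5 genes did not pass, and their groups overlapped. For the 4 of them above the level of unexpressed genes, Esr2, Nr3c1, Nr3c2 and Gper1, the intervals allow a signal in knockout muscle of 0.734 to 1.16 times that in control muscle. Esr2 and Gper1 lay close to the level of unexpressed genes, where RMA compresses differences. For these genes the intervals bound array signal and not the amount of transcript.

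The identity of the transcript behind the Esr1 signal has a limit. Deletion timed in adult muscle is commonly made with MerCreMer, a Cre recombinase joined to mutated ligand-binding domains of mouse estrogen receptor alpha, and is started with tamoxifen, itself a ligand of the estrogen receptor. The labels neither name this transgene nor exclude it, and they do not say which exons the Esr1 probe set covers. Transcript of the gene and transcript of such a transgene therefore cannot be told apart on these arrays. Beside Esr1, 4 of 16010 probe sets without a gene name were higher in knockout muscle by more than 4 on the log2 scale. Only this direction was searched. They lay between 10.8 and 11.8 on the knockout arrays and between 5.21 and 7.01 on the control arrays, with log2 fold changes of 4.73 to 5.63. What they detect is not annotated, and their relation to Esr1 was not tested.

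The genes whose values followed Esr1 most closely over the 6 arrays were sought among 392 genes with a range of at least 1 on the log2 scale and a mean above 5.85. The 5 highest Pearson correlations were with Chrna1 (r = 0.987), an acetylcholine receptor subunit of muscle, with Sln (r = 0.979), the sarcolipin that inhibits the calcium pump, with Chrna9 (r = 0.961), a further subunit of that family, with Mical2 (r = 0.956), an enzyme that oxidises actin, and with Ccndbp1 (r = 0.954), a cyclin D-binding protein. These values describe 6 arrays that share the group difference, and carry no test. Chrna1 read 10.45, 10.15 and 10.13 in knockout muscle and 8.77, 8.65 and 8.57 in control muscle. Knockout 1 was the highest array and control 3 the lowest for both Chrna1 and Esr1. Mical2 read 10.62, 10.26 and 10.47 in knockout muscle and 9.98, 9.72 and 9.46 in control muscle, with an adjusted p of 0.215 (limma).

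**Figure D3:**
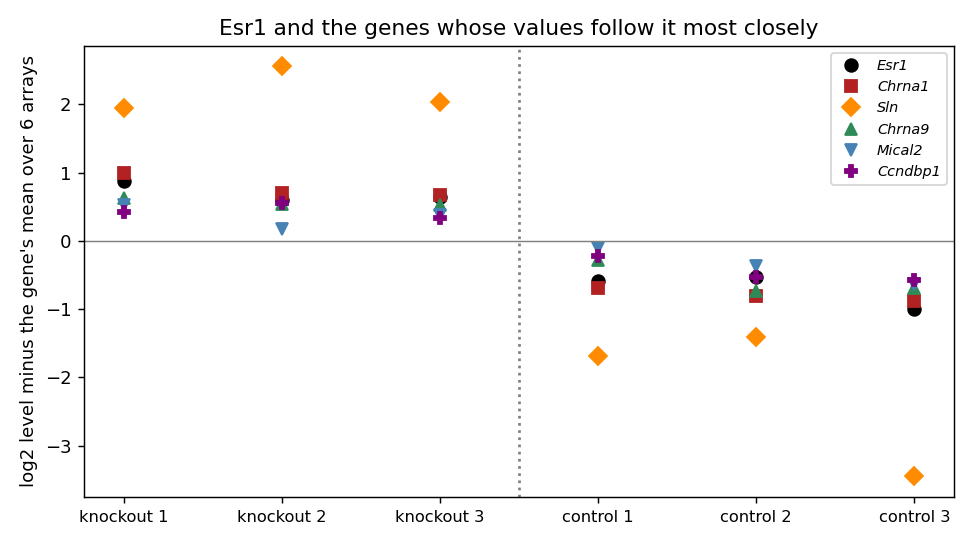
Log2 level of Esr1 and of the 5 genes that follow it most closely, each minus its own mean over the 6 arrays, with the 3 knockout arrays left of the 3 control arrays. All 6 genes lie above their mean on every knockout array and below it on every control array, and Sln moves over the widest range.

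The genes around these receptors were described through 8 lists: other nuclear receptors, membrane progestin receptors, chaperones, coregulators, responsive genes of 3 receptors, and steroid enzymes. Of 221 measured genes in all, 0 passed an adjusted p of 0.05 over all genes (limma). At an unadjusted p under 0.05 the count was 24, or 10.9%, beside 8.04% of all genes. Groups did not overlap in 34 of the 221 (15.4%), beside the 13.4% given above. The values below therefore describe genes that did not pass the test.

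Estrogen responsive genes are those that estrogen receptor alpha is known to control, mostly in breast and uterus. Of 35 measured, 0 passed in either direction (5 at an unadjusted p under 0.05), 19 were higher and 16 lower in knockout muscle, and the median log2 fold change was 0.005, beside −0.0003 over all genes. Greb1, a coactivator-like gene strongly induced by estrogen in breast cells, read 5.21, 5.19 and 5.10 in knockout muscle and 5.35, 5.24 and 5.23 in control muscle, below the level of unexpressed genes. Igf1, a muscle growth factor, had a log2 fold change of −0.11 (95% confidence interval −0.45 to 0.24, adjusted p = 0.920).

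In 6 of the 35 genes of that list the groups did not overlap, beside 13.4% of all genes. Of these, 4 were higher and 2 lower in knockout muscle. The transcriptional coregulator Cited2 stood at 10.93, 10.61 and 10.84 in knockout muscle and at 10.56, 10.25 and 10.36 in control muscle (log2 fold change 0.40, adjusted p = 0.440). The kinase Sgk3 stood at 0.28 (adjusted p = 0.572). The chemokine Cxcl12 lay on the other side, at −0.27 (adjusted p = 0.561). None of these passed, and the median of the list was −0.05 among genes above the median level only.

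Glucocorticoid receptor targets lay on both sides of 0. Of 45 measured, 0 passed (3 at an unadjusted p under 0.05), 20 were higher and 25 lower, and the median log2 fold change was −0.02. Log2 fold changes in the list ran from −0.71 to 0.86. The co-chaperone Fkbp5 had a log2 fold change of −0.08 (95% confidence interval −0.73 to 0.58). Tsc22d3, the glucocorticoid-induced leucine zipper, stood at −0.02 (−0.27 to 0.22), and Klf15, a regulator of amino acid breakdown, at 0.02 (−0.38 to 0.42).

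For Fkbp5 the groups were interleaved, at 8.31, 8.32 and 9.26 in knockout muscle and 8.84, 9.05 and 8.22 in control muscle. Glutamine synthetase, Glul, stood at 12.47, 12.44 and 12.76 in knockout muscle and at 12.09, 12.08 and 11.72 in control muscle (log2 fold change 0.59, adjusted p = 0.268). The phosphatase Dusp1, which dampens MAP kinases, stood at 9.48, 9.10 and 9.70 in knockout muscle and at 10.53, 9.84 and 10.06 in control muscle (−0.71, adjusted p = 0.402). In both genes the groups did not overlap, with neither passing the test. Txnip, a redox regulator of glucose uptake, stood at 0.29 (adjusted p = 0.690).

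Of 19 measured mineralocorticoid receptor targets, 0 passed (2 at an unadjusted p under 0.05), 8 were higher and 11 lower, and the median was −0.02. The kinase Sgk1, a target of both corticosteroid receptors, stood at −0.08 (95% confidence interval −0.51 to 0.34). The sodium pump subunit Atp1b1 stood at 0.67 (adjusted p = 0.510), at 11.92, 12.17 and 11.81 in knockout muscle and 10.72, 11.75 and 11.40 in control muscle, where control 1 was the lowest array. The ubiquitin ligase Nedd4l stood at 0.31 (adjusted p = 0.487) and Ndrg2 at −0.07 (adjusted p = 0.893).

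The other nuclear receptors numbered 40, of which 0 passed (6 at an unadjusted p under 0.05), 16 were higher and 24 lower, and the median was −0.03. Nr4a3, an orphan receptor induced by contraction, had the highest value, 1.02 (SE 0.30, adjusted p = 0.425). It stood at 8.29, 9.32 and 9.54 in knockout muscle and at 8.20, 7.67 and 8.22 in control muscle, and knockout 1 lay just above the controls. Its relative Nr4a1 stood at −0.10 (adjusted p = 0.862).

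The retinoid X receptor Rxrg had the lowest value of the family, at 8.11, 7.32 and 7.64 in knockout muscle and 8.59, 8.18 and 8.16 in control muscle (log2 fold change −0.62, adjusted p = 0.458). The thyroid hormone receptor Thra stood at −0.29 (adjusted p = 0.450), and its paralogue Thrb on the other side at 0.29 (adjusted p = 0.506), both with groups that did not overlap. Thrb and Esrrb, described next, were named after their values were seen. The orphan receptor Nr6a1 stood at 0.30 (adjusted p = 0.576). The estrogen-related receptors are orphan receptors that bind no estrogen and control mitochondrial genes. Of these, Esrra had a log2 fold change of 0.18 (95% confidence interval −0.08 to 0.45) and Esrrg of 0.42 (−0.04 to 0.88), while Esrrb, close to the level of unexpressed genes, stood at −0.10 (−0.40 to 0.19).

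Chaperones that hold steroid receptors ready for hormone included 19 measured genes, of which 0 passed (3 at an unadjusted p under 0.05), 14 were higher and 5 lower, and the median was 0.11. The heat-inducible HSP70 genes Hspa1b and Hspa1a had the highest values, 0.88 and 0.75 (adjusted p = 0.504 and 0.560). These genes are near-identical copies, so their probe sets may not be independent. For Hspa1b, knockout 3 stood apart at 8.17, beside 6.95 and 6.92 on the other knockout arrays and 6.71, 6.37 and 6.31 on the control arrays.

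Of 30 coactivators and corepressors, 0 passed (3 at an unadjusted p under 0.05), 10 were higher and 20 lower, and the median was −0.07. Ppargc1a, a coactivator of mitochondrial genes that also binds steroid receptors, stood at 10.81, 11.08 and 11.20 in knockout muscle and at 10.23, 10.75 and 10.31 in control muscle (0.59, adjusted p = 0.351). The groups did not overlap, but knockout 1 lay just above control 2. The steroid receptor coactivator Ncoa1 stood at −0.24 (95% confidence interval −0.51 to 0.04) and the corepressor Nrip1 at 0.25 (−0.02 to 0.53).

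Groups did not overlap in 6 of the 30 coregulators, 3 higher and 3 lower, beside 13.4% of all genes. Besides Ppargc1a, those with the largest differences were Pelp1, a coactivator of estrogen receptors (log2 fold change 0.17, adjusted p = 0.739), the ligand-dependent corepressor Lcor (−0.28, adjusted p = 0.621) and the histone methyltransferase Kmt2d (−0.22, adjusted p = 0.673). Membrane progestin receptors and their PGRMC relatives had 9 measured genes, of which 0 passed (1 at an unadjusted p under 0.05), with a median log2 fold change of 0.09. Pgrmc1, a heme-binding membrane protein, stood at 0.09 (95% confidence interval −0.14 to 0.32), and Nenf, a secreted relative, at 0.23 (adjusted p = 0.617).

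Enzymes that make or inactivate steroids had 35 measured genes, of which 0 passed (2 at an unadjusted p under 0.05), 19 were higher and 16 lower, and the median was 0.03. Hsd17b7, which takes part in cholesterol synthesis and can also convert estrone to estradiol, had the smallest adjusted p of the 221 genes (0.161). It stood at 6.49, 6.10 and 6.46 in knockout muscle and at 7.59, 7.11 and 7.04 in control muscle, a log2 fold change of −0.90 (SE 0.17), with groups that did not overlap. Hsd17b4, a peroxisomal enzyme of fatty acid oxidation, stood at 0.39 (adjusted p = 0.533). Hsd11b1, which regenerates active glucocorticoid in tissue, stood at 0.06 (95% confidence interval −0.25 to 0.37).

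**Figure D4:**
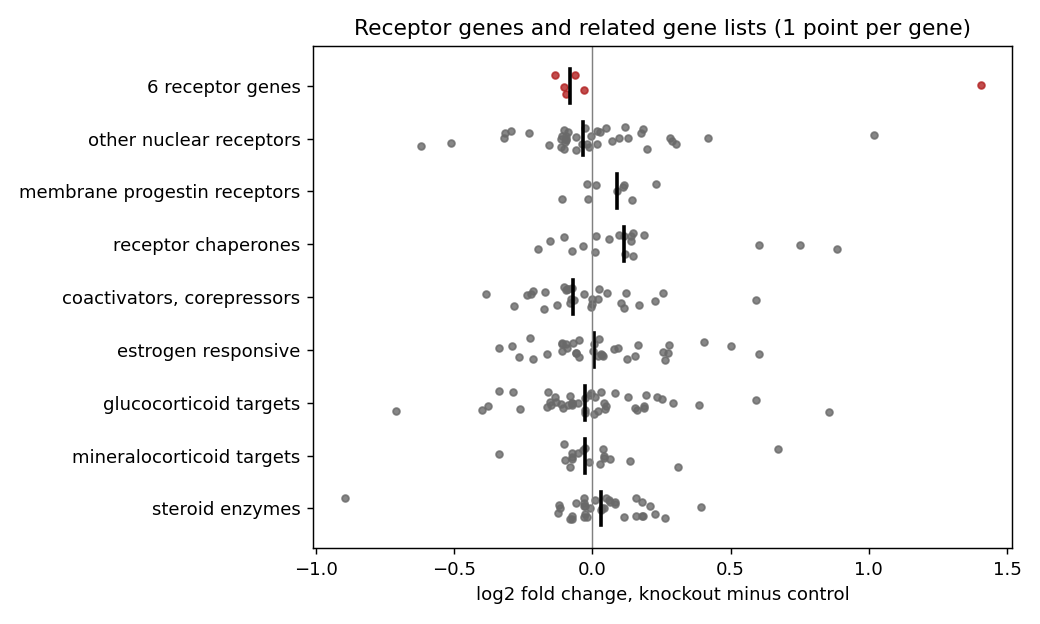
Log2 fold change, knockout minus control, of the 6 receptor genes (red, top) and of the genes in 8 related lists (grey), 1 point per gene with the median as a black bar. List medians lie between −0.07 and 0.11, and Esr1, at 1.40, lies beyond every other gene shown.

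Markers of other cells that could carry these receptors were read on the same arrays. Mean log2 levels of fibro-adipogenic progenitor markers ran from 8.19 to 8.80 in knockout muscle and from 8.52 to 8.68 in control muscle. For endothelial markers the ranges were 7.97 to 8.02 in knockout and 7.92 to 8.16 in control muscle, for pericyte and smooth muscle markers 8.30 to 8.46 in knockout and 8.31 to 8.56 in control muscle, and for adipocyte markers 7.52 to 8.16 in knockout and 7.54 to 8.09 in control muscle. In each of these lists the groups overlapped. Macrophage markers overlapped too, at 6.88 to 7.18 in knockout and 6.82 to 7.17 in control muscle. Among single markers, the log2 fold change was −0.21 for Pdgfra of the progenitor list (4 higher, 10 lower). It was 0.05 for Pecam1 of the endothelial list (5 higher, 6 lower) and −0.23 for Adipoq of the adipocyte list (3 higher, 7 lower). All 3 had overlapping groups.

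Satellite cell markers averaged 7.45 to 7.52 in knockout and 7.58 to 7.65 in control muscle and did not overlap. Of 11 markers, 0 passed over all genes (limma), and 2 had an unadjusted p under 0.05, beside 8.04% of all genes. Of the 11, 4 were higher and 7 lower, and the median log2 fold change was −0.11. Groups did not overlap in 3 of the 11, 1 higher and 2 lower, beside 13.4% of all genes. The lower ones were Chodl, which had the lowest value (−0.57, adjusted p = 0.145), and Cdh15, a cadherin (−0.26, adjusted p = 0.533). The higher one was Des, which is also in the fibre list (0.17, adjusted p = 0.719). Pax7, the defining transcription factor of satellite cells, stood at −0.05 with overlapping groups (95% confidence interval −0.38 to 0.28). Chodl, Cdh15 and Des were named after their values were seen. All 11 tenocyte markers were lower in knockout muscle (median log2 fold change −0.68). Their mean was 7.54, 7.11 and 6.59 in knockout and 7.43, 7.95 and 7.93 in control muscle, so the groups overlapped. Of the 11, 0 passed over all genes (limma), and 6 had an unadjusted p under 0.05, beside 8.04% of all genes. Of 9 lymphocyte markers, 0 lay above the level of unexpressed genes. Schwann cell markers ran from 6.06 to 6.12 in knockout and from 6.03 to 6.13 in control muscle. The part of other cell types in the Esr1 difference was not tested.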

How the data were processed

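The submitters' processing notes name oligo, RMA and limma, with no version or order. The deposited values are log2 summaries of 41345 probe sets on each of 6 arrays. RMA corrects background, makes the arrays' distributions alike and compresses differences of dim transcripts. No scanner files, detection calls or scan dates were used, so scan batches were not tested, and the number of arrays limits precision. Symbols came from GEO's platform annotation: 23521 probe sets had 1 symbol, 1814 several and 16010 none. Knockout minus control differences were fitted in R 4.3.3 by limma 3.58.1 (group means, two-sided, Benjamini-Hochberg over 22180 genes, threshold 0.05, no filter). The fit was tested on simulated data. Figures used matplotlib 3.10.9 in Python 3.11.15.

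The receptor genes and lists were chosen with earlier results of these data known. Of 376 list entries, 344 were measured, and some genes stand in several lists. Named genes were the 6 receptors, a fixed set, and in each list the called genes and up to 2 highest and 2 lowest with groups that did not overlap and a mean above 5.85. The 5 genes most like Esr1 excluded predicted genes and clone names. Fixed genes without a probe set of their own were not used here.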

Additional observations from a re-analysis of the deposited data

How the results depend on the processing

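Over the 15 alternatives, the log2 fold change of Esr1 stayed between 1.26 and 1.49, and those of Esr2, Nr3c1 and Gper1 stayed below 0. That of Nr3c2 reached 0.01. Pgr was removed by the 2 level filters, and its value reached 0.01 in the other 13, with no fold read from it at its signal. The number of receptor genes passing was 0 when every probe set was tested, and 0 to 1 when 1 array was left out, where only the fit without control 3 kept 1. The number of all genes passing, 21, became 6 when every probe set was tested, 53 among genes above the median level, 45 among genes above the olfactory receptor level, 36 with an intensity trend and robust prior, and 2 to 11 when 1 array was left out. The cause was not tested. In none of the 15 alternatives did any gene of the 8 related lists pass.

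Arrays with the same replicate number did not deviate together in every pair (r = 0.08, 0.21 and −0.07 across genes), so the numbers are not taken as pairs. With replicate number as a block, 17 genes passed, including 1 receptor gene, and the log2 fold change of Esr1 was 1.40. Differences near the level of unexpressed genes, as for Esr2, Gper1 and Pgr, are limited by signal.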
